A study of Mus musculus with 6 samples.

Results

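Insulin signalling and glucose transport were followed through 9 genes of cold-exposed inguinal white adipose tissue, the fat depot under the skin of the groin. They were chosen by name, as the rows of the deposited expression table for Insr, Irs1, Irs2, Pik3r1, Akt1, Akt2, Slc2a1, Slc2a4 and Tbc1d4. All 9 were found among its 21900 distinct gene symbols. The 6 samples came from C57BL/6 mice aged 2 months, kept on chow at 22 °C and then held at 4 °C for 7 days. In 3 control samples the genotype was Foxp4fl/fl, with both copies of the forkhead transcription factor gene Foxp4 floxed. In 3 knockout samples it was Foxp4AdipoQdelta/delta, in which the deletion is tied by its name to Adipoq, whose promoter is active in mature adipocytes. The labels name no Cre in the controls, so effects of the Cre driver and of the loss of Foxp4 cannot be told apart. They do not say whether a sample was 1 mouse or a pool, and p-values therefore measure only the spread between these samples.

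Insulin binds a receptor tyrosine kinase, which phosphorylates the insulin receptor substrate (Irs) adaptors. These recruit phosphoinositide 3-kinase, whose lipid product activates the Akt kinases. In adipocytes Akt2 phosphorylates the Rab GTPase-activating protein TBC1D4 (also called AS160), which releases vesicles carrying the glucose transporter GLUT4, the product of Slc2a4, to the cell surface. GLUT1, the product of Slc2a1, is a widely expressed transporter that works without insulin. Cold exposure is known to raise glucose uptake into thermogenic fat. Most of this control acts on proteins by phosphorylation and movement, which transcript levels do not show.

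Values are FPKM (fragments per kilobase of exon and per fixed number of mapped reads), which are comparable between genes of 1 library because they are divided by exon length. Recovered reads on genes numbered between 13180594 and 15998348 per library. The knocked-out gene itself stood at 5.76, 4.01 and 4.62 FPKM in controls 1 to 3 and at 1.92, 1.71 and 1.64 FPKM in knockouts 1 to 3, without overlap (Foxp4 log2 fold change -1.06, SE 0.12, adjusted p = 0.070 in limma). Of 10787 genes tested in limma, a linear model across all genes, 0.00927% passed an adjusted p of 0.05, which is 1 gene and not one of the 9. At an unadjusted p under 0.05 the share was 24.1%, with 6.98% higher and 17.1% lower in knockouts. The 3 knockouts lay wholly above the 3 controls in 8.48% of genes and wholly below them in 22.7%, together 31.2%.

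None of the 9 genes passed an adjusted p of 0.05 in limma, nor did any with voom weights on recovered reads. At an unadjusted p under 0.05 there were 2 of 9, Slc2a4 higher and Irs2 lower in knockouts, which is close to the 24.1% of all genes. These were also the only 2 of the 9 in which the groups did not overlap, against 31.2% of all genes, and both stayed apart after median-of-ratios and upper-quartile scaling. The median log2 fold change of the 9 was -0.14, against -0.082 over all genes tested. After median-of-ratios scaling the median of the 9 was -0.047, and that of all genes was -0.0011. The count of 2 was 0 without knockout replicate 1 and 1 without knockout replicate 3. In those fits 1884 of 10802 and 2135 of 10812 genes tested had an unadjusted p under 0.05, against 2601 of 10787 with all libraries. The plot of the 9 genes by library shows how far the libraries of each group were spread.

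**Figure D1:**
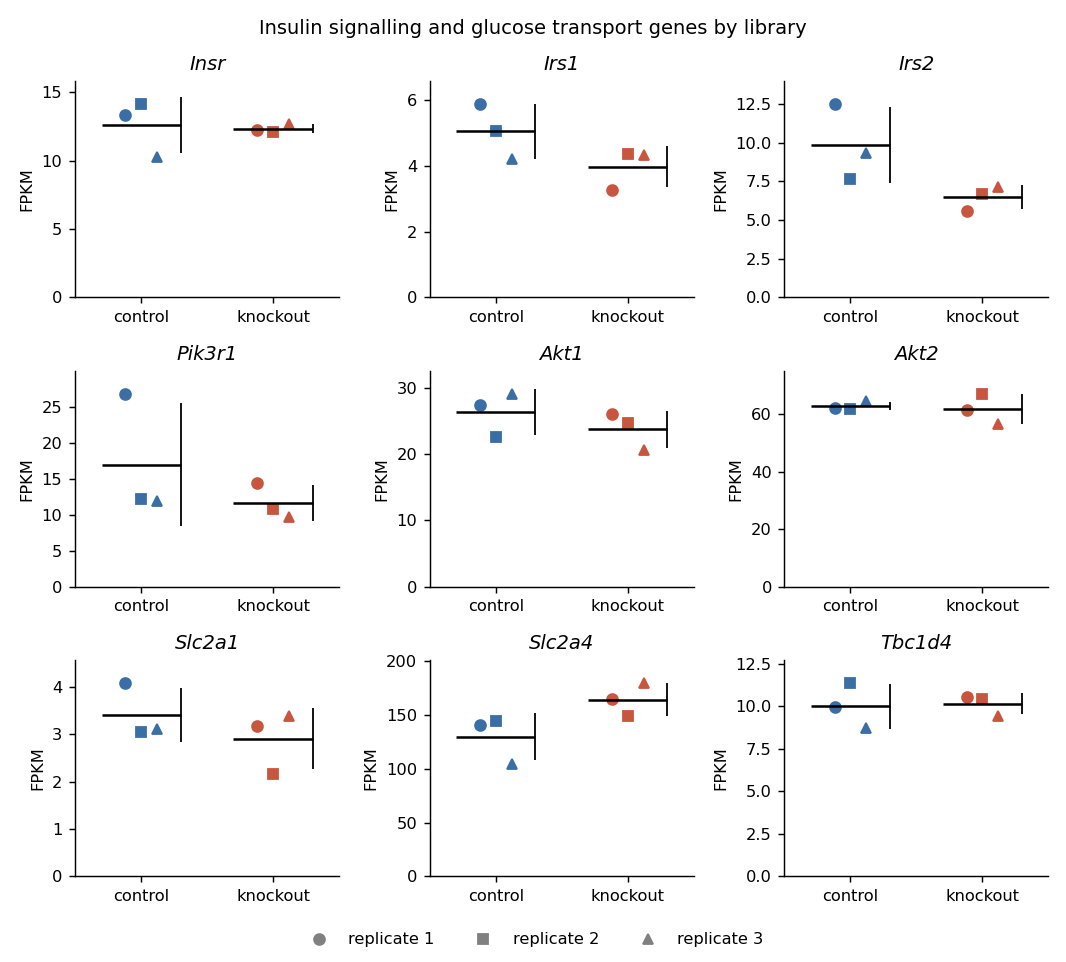
FPKM (vertical axes, from 0) of the 9 genes in each library, with 1 marker shape per replicate number. Long bars are group means and thin vertical lines are ± 1 SD (n = 3 per group). The groups are apart for Slc2a4 (controls up to 145 FPKM, knockouts from 149 FPKM) and Irs2 (controls from 7.67 FPKM, knockouts up to 7.14 FPKM), and overlap for the other 7 genes.

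The transcript for GLUT4 was the most abundant of the 9. Over all 6 libraries Slc2a4 averaged 147 FPKM, which lay at the 97.8th percentile of the genes tested. Akt2 followed at 62.3 FPKM and Akt1 at 25.0 FPKM, each above the next gene in 6 of 6 libraries. Pik3r1 (14.3 FPKM) and Insr (12.5 FPKM) could not be ordered, since Pik3r1 was the higher of the pair in 3 of 6 libraries. Tbc1d4 (10.1 FPKM) and Irs2 (8.16 FPKM) were not clearly ordered either, with Tbc1d4 above in 4 of 6. Irs1 (4.52 FPKM) and Slc2a1 (3.16 FPKM, at the 29.1st percentile) were the lowest, and their ranges overlapped although Irs1 was above Slc2a1 in 6 of 6 libraries. All 9 genes passed the filter of 1 FPKM, and the thinnest, Slc2a1, rested on 101 to 201 reads per library.

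The receptor gene had nearly the same mean in both genotypes. Insr (chromosome 8, 3122061 to 3279617, minus strand, mm10), which encodes the insulin receptor, read 13.4, 14.1 and 10.2 FPKM across controls 1 to 3 against 12.2, 12.1 and 12.7 FPKM across knockouts 1 to 3. Control replicate 3 was the lowest and control replicate 2 the highest of the 6, and all 3 knockouts lay between them. The log2 fold change came to -0.015 (SE 0.12, adjusted p = 0.95 in limma), with a 95% interval of -0.29 to 0.26. Its sign was positive after median-of-ratios scaling (0.076) and upper-quartile scaling (0.062). As a ratio of knockout to control the interval runs from 0.816 to 1.202.

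Both adaptor genes had lower means in the knockouts, Irs2 more than Irs1. Irs2 (chromosome 8, 10984681 to 11008458, minus strand) read 12.5, 7.67 and 9.34 FPKM across controls 1 to 3 against 5.604, 6.72 and 7.14 FPKM across knockouts 1 to 3. Every knockout was below every control, and control replicate 1 was the highest by 1.34 times the next library. The means were 9.84 ± 2.45 and 6.49 ± 0.79 FPKM (SD, n = 3), resting on 709 to 1114 reads in each control and 524 to 683 in each knockout. The Irs2 log2 fold change came to -0.52 (SE 0.17, 95% interval -0.91 to -0.12), with an unadjusted p of 0.017 and an adjusted p of 0.14 in limma. Without control replicate 1 it was -0.34, and without control replicate 2 it was -0.66, the ends of its range when 1 library was left out.

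Irs1 (chromosome 1, 82233101 to 82291416, minus strand) read 5.88, 5.06 and 4.23 FPKM across controls 1 to 3 against 3.25, 4.36 and 4.32 FPKM across knockouts 1 to 3. Control replicate 3 lay below 2 of the knockouts, so the groups overlapped. The Irs1 log2 fold change came to -0.28 (SE 0.14, 95% interval -0.60 to 0.039, adjusted p = 0.25 in limma), from -0.38 to -0.17 when 1 library was left out. Exons of Irs1 share 2822 of their 9144 bases with Gm9747 on the opposite strand. The strand setting of the counting is not given in the sources used here. Reads on these bases may therefore be missing from Irs1, or may not all be its own. Its rank, its share of the Irs genes and its ratio to Irs2 carry the same limit. Gm9747 itself is listed at 0 in all 6 libraries. Such overlaps were smaller for Irs2 (162 bases, with 9530052E02Rik) and Slc2a1 (105 bases, with Gm12868). The ratio of Irs2 to Irs1 within a library was 2.13, 1.52 and 2.21 in controls and 1.72, 1.54 and 1.65 in knockouts. On the log2 scale it differed by -0.23 between groups (exact two-sided permutation p = 0.40, n = 3 per group, adjusted p = 0.40 over 3 ratios), where the smallest p that the design allows is 0.10.

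The stretches before the start sites of these 2 adaptor genes are shown because the genes are the 2 adaptors among the 9 and carry the same pair of short motifs. Sequences are from RefSeq (GRCm38.p6), which gave windows for 7 of the 9 genes, 12 windows in all. Each is the 250 bases before the annotated start, written 5′ to 3′ on the gene's own strand. Capitals mark CACGTG (the E-box), TGTTTTG (the core of the insulin response element, at which forkhead factors of the FoxO family bind) and TGTTTAC (a forkhead core), searched on both strands. The first is its own reverse complement, and the motifs were chosen after the sequences were seen.
Irs1, chr1:82291440-82291689, minus strand: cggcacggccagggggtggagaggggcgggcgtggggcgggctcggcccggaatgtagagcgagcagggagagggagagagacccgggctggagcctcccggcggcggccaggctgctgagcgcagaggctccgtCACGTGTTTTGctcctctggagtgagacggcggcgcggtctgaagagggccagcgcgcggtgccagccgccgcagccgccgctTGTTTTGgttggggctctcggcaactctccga
Irs2, chr8:11008930-11009179, minus strand: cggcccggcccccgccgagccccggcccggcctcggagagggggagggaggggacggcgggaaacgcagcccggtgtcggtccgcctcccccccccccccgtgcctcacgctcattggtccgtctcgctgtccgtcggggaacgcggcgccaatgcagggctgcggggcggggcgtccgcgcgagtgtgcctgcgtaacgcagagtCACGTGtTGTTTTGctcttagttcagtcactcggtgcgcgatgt

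In Irs1 the E-box began 115 bases before the start and overlapped a TGTTTTG that began at 111 bases, with a further TGTTTTG at 32 bases. In Irs2 the E-box began 44 bases before the start and a TGTTTTG followed at 37 bases. These distances are from the RefSeq starts, which differ from the gene ends given above. The window began at 11008930 against a gene end of 11008458 for Irs2, and at 82291440 against 82291416 for Irs1. Measured from those gene ends, the motifs lie further upstream. Of all 32851 windows of this length, 6.02% held CACGTG, 5.56% TGTTTTG and 3.17% TGTTTAC. The forkhead core was in neither adaptor window, and among the 7 genes with a window it was found only in 1 of those of Akt1, 161 bases before the start. The windows of Slc2a1, Akt2, Pik3r1 and Tbc1d4 held none of the 3 motifs. No window was read for Insr and Slc2a4. These are matches of letters and were not tested as binding sites.

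A further adaptor gene, Irs3, was more abundant than either. Irs3, a rodent relative of Irs1 and Irs2, averaged 17.8 ± 3.43 FPKM over the controls and 14.8 ± 1.98 FPKM over the knockouts (SD, n = 3; adjusted p = 0.36 in limma). It made up 53.5 to 65.2% of the summed FPKM of the Irs genes in every library, Irs2 22.0 to 31.4% and Irs1 12.8 to 18.5%, while Irs4 was listed at 0. The summed Irs level was 39.9, 27.4 and 30.8 FPKM across the controls against 25.5, 23.8 and 26.6 FPKM across the knockouts. These did not overlap as deposited, but did after either scaling (27.5 FPKM in control 2 against 28.1 FPKM in knockout 3 with median-of-ratios).

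The gene for the main regulatory subunit of phosphoinositide 3-kinase was set apart by 1 control. Pik3r1 (chromosome 13, 101680563 to 101768217, minus strand), which encodes p85-alpha and shorter forms that a gene-level value does not separate, read 26.8, 12.2 and 11.9 FPKM across controls 1 to 3. It read 14.4, 10.8 and 9.66 FPKM across knockouts 1 to 3. Control replicate 1 was 1.86 times the next highest library, and the other 5 libraries overlapped. The Pik3r1 log2 fold change came to -0.43 (SE 0.30, 95% interval -1.14 to 0.29, adjusted p = 0.41 in limma), and -0.063 without control replicate 1. The same library was the highest of the 6 for 4 of the 9 genes, Irs1, Irs2, Pik3r1 and Slc2a1. It also had the lowest summed level of 6 thermogenic adipocyte markers, 1221 FPKM against 2165 and 2790 FPKM in the other controls, and the highest of 6 erythroid markers, 1952 FPKM against 580 to 1100 FPKM elsewhere. Their part in the values of these 4 genes was not tested.

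Pik3r1 held 63.0, 50.4 and 40.9% of the summed FPKM of the 3 regulatory subunit genes in controls, and 51.4, 48.1 and 45.7% in knockouts. Pik3r2 held 32.02 to 50.4% over all 6 libraries, more than Pik3r1 only in control replicate 3, and Pik3r3 held 5.01 to 9.43%. The shares in the plot of family members differ more between control replicates 1 and 3 than between the group means of 51.4% and 48.4%.

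**Figure D2:**
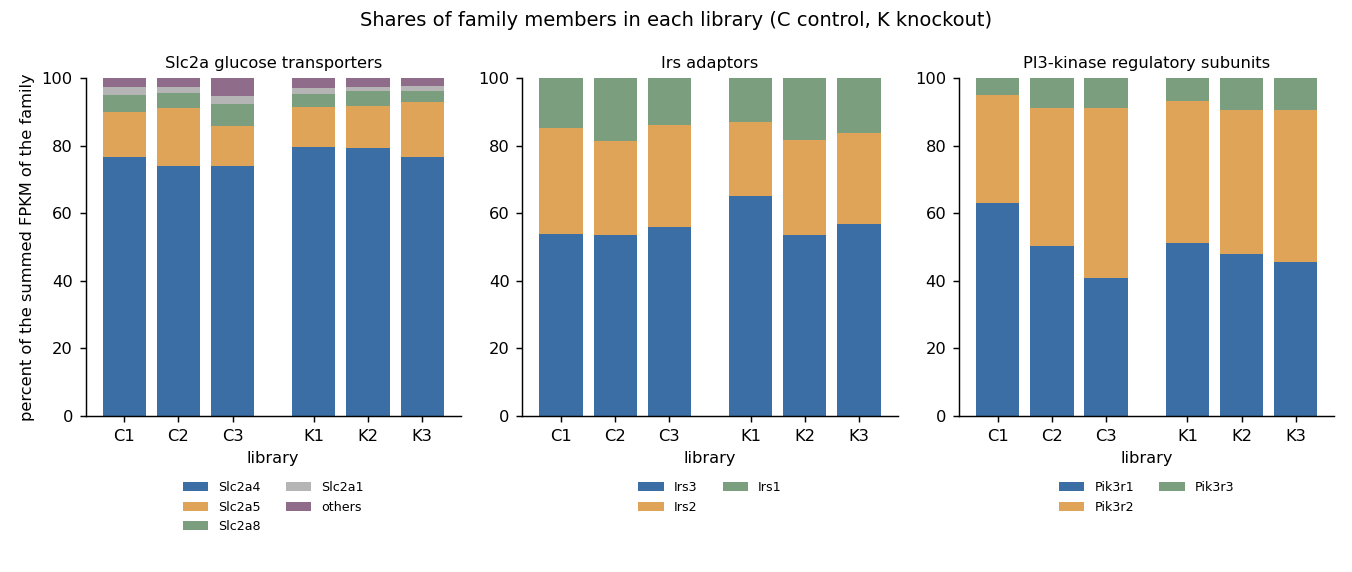
Stacked bars give each gene's percent of the summed FPKM of its family in control (C1 to C3) and knockout (K1 to K3) libraries, from 0 to 100%. Slc2a4 makes up 74.0 to 79.6% of the Slc2a glucose transporters and Irs3 53.5 to 65.2% of the Irs adaptors. The widest spread within a group is that of Pik3r1 in the controls, from 40.9% in C3 to 63.0% in C1.

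The means of both Akt genes were close between genotypes. Akt2 (chromosome 7, 27591552 to 27640826, plus strand), the isoform that carries the insulin signal to glucose transport, read 62.2, 61.8 and 64.4 FPKM across controls 1 to 3 against 61.6, 67.1 and 56.5 FPKM across knockouts 1 to 3. The controls all lay inside the range of the knockouts. Its log2 fold change came to -0.028 (SE 0.086, 95% interval -0.23 to 0.17, adjusted p = 0.86 in limma), with a positive sign after median-of-ratios (0.070) and upper-quartile scaling (0.054). Akt2 had the narrowest spread of the 9, its highest library being 1.19 times its lowest.

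Akt1 (chromosome 12, 112653821 to 112674884, minus strand), the broadly expressed isoform tied to cell growth, read 27.4, 22.5 and 29.1 FPKM across controls 1 to 3 against 26.0, 24.6 and 20.6 FPKM across knockouts 1 to 3. The groups overlapped, with a log2 fold change of -0.14 (SE 0.13, 95% interval -0.44 to 0.15, adjusted p = 0.51 in limma). It was -0.047 after median-of-ratios and -0.062 after upper-quartile scaling, -0.25 without control replicate 2, -0.069 without control replicate 3 and -0.048 without knockout replicate 3. The ratio of Akt1 to Akt2 was 0.441, 0.365 and 0.451 in controls and 0.422, 0.367 and 0.365 in knockouts, which overlapped (log2 difference -0.12, exact two-sided permutation p = 0.40, n = 3 per group, adjusted p = 0.40 over 3 ratios).

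Slc2a4 had the highest mean in knockouts relative to controls of the 9 genes. Slc2a4 (chromosome 11, 69942539 to 69948188, minus strand) read 140, 145 and 105 FPKM across controls 1 to 3 against 164, 149 and 179 FPKM across knockouts 1 to 3. Every knockout was above every control, by a gap of 149 against 145 FPKM at the nearest. The means were 130 ± 22.0 and 164 ± 15.3 FPKM (SD, n = 3), a ratio of 1.26, and rested on 5869 to 9435 reads per library. The Slc2a4 log2 fold change came to 0.34 (SE 0.14, 95% interval 0.0066 to 0.68), with an unadjusted p of 0.047 and an adjusted p of 0.20 in limma. Without control replicate 3, the lowest library, it was 0.20, and without knockout replicate 3, the highest, it was 0.28.

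Slc2a4 is also expressed in skeletal muscle, and in whole tissue fewer cells of a type and less RNA per cell cannot be told apart. The summed level of 10 muscle markers was 101, 49.8 and 78.6 FPKM across the controls and 51.7, 136 and 383 FPKM in knockouts. All 9 that could be tested had a positive fold change, 0 at an unadjusted p under 0.05, and Tnnc2 was listed at 0 in every library. In the same order Slc2a4 read 140, 145 and 105 FPKM in controls and 164, 149 and 179 FPKM in knockouts. Knockout replicate 3 was the highest for both, while knockout replicate 1 had a muscle sum below that of 2 controls. Control replicate 3, the lowest for Slc2a4, Insr and Tbc1d4, had the highest summed fibroblast and progenitor markers (559 FPKM, against 248 to 330 FPKM elsewhere) and endothelial markers (219 FPKM, against 115 to 159 FPKM elsewhere). The part of these markers in the Slc2a4 values was not tested.

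Slc2a1 (chromosome 4, 119108711 to 119137983, plus strand) read 4.07, 3.04 and 3.11 FPKM across controls 1 to 3 against 3.18, 2.17 and 3.37 FPKM across knockouts 1 to 3, with overlapping groups. Its log2 fold change came to -0.18 (SE 0.15, 95% interval -0.54 to 0.18, adjusted p = 0.49 in limma). It was -0.11 after median-of-ratios and -0.12 after upper-quartile scaling, -0.076 without control replicate 1, -0.036 without knockout replicate 2 and -0.27 without knockout replicate 3. The ratio of Slc2a1 to Slc2a4 was 0.0290, 0.0210 and 0.0297 in controls and 0.0194, 0.0146 and 0.0188 in knockouts. All 3 knockouts were below all 3 controls, by -0.59 on the log2 scale. The exact two-sided permutation p was 0.10, the smallest that 3 against 3 can give, and 0.30 adjusted over the 3 ratios.

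Among the 12 Slc2a genes in the table Slc2a4 made up 76.7, 74.2 and 74.0% of the summed FPKM in controls and 79.6, 79.3 and 76.6% in knockouts, with overlap. Next came Slc2a5, the fructose transporter gene, with 24.7 ± 8.12 FPKM over the controls and 28.8 ± 8.599 FPKM over the knockouts (SD, n = 3). Slc2a8, for an intracellular transporter, had 9.35 ± 0.17 and 8.13 ± 0.51 FPKM. Slc2a1 held 1.16 to 2.22% of the family sum.

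Tbc1d4 (chromosome 14, 101442360 to 101609191, minus strand) read 9.92, 11.3 and 8.72 FPKM across controls 1 to 3 against 10.6, 10.42 and 9.43 FPKM across knockouts 1 to 3. The knockouts all lay inside the range of the controls. The Tbc1d4 log2 fold change came to 0.024 (SE 0.10, 95% interval -0.22 to 0.27, adjusted p = 0.90 in limma), and it was negative without control replicate 3 (-0.061) and without knockout replicate 1 (-0.0033).

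**Figure D3:**
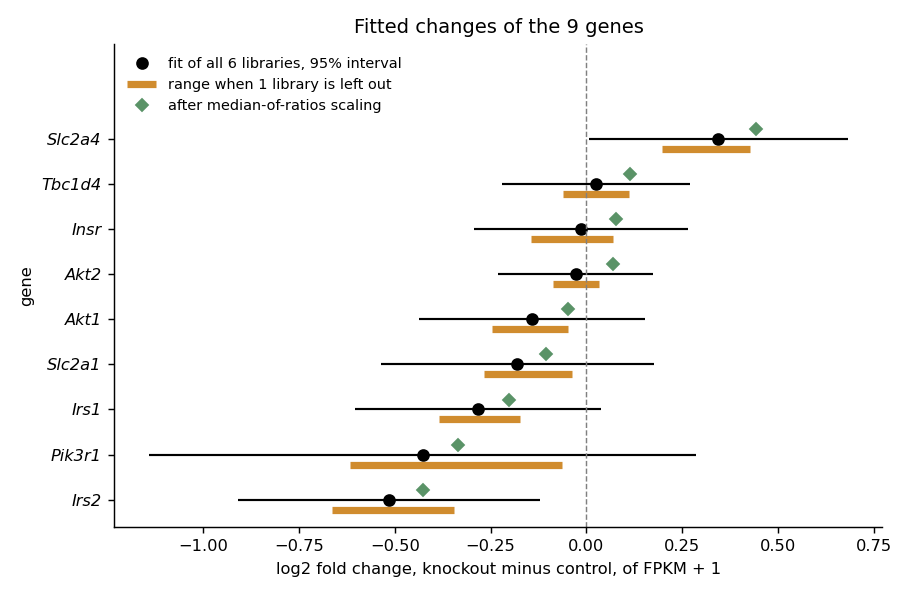
Log2 fold changes, knockout minus control, of FPKM + 1 (horizontal axis) for the 9 genes, with 95% intervals from the fit of all 6 libraries (black), the range over fits without 1 library (orange bars) and the value after median-of-ratios scaling (green diamonds). Only the intervals of Irs2 (-0.91 to -0.12) and Slc2a4 (0.0066 to 0.68) lie on 1 side of 0, and neither gene passed the adjusted threshold.

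Further genes of the pathway were taken by role in 5 lists of 90 genes, of which 81 reached the filter. None passed an adjusted p of 0.05 in limma or with voom weights. At an unadjusted p under 0.05, 6 of the 81 were higher and 16 lower in knockouts, against 6.98% and 17.1% of all genes. Under median-of-ratios scaling there were 9 higher and 9 lower, against 13.03% higher and 9.28% lower of all genes. The count of 16 was also 9 when control 1, control 3 or knockout 2 was left out, 6 when knockout 1 was, and 7 when knockout 3 was. The share of all genes that were lower fell as well. It was 14.5% without control 1, 14.1% without control 3, 12.6% without knockout 1, 10.2% without knockout 2 and 12.5% without knockout 3. The median log2 fold change of the 81 was -0.091, close to that of all genes tested. As deposited, the knockouts lay wholly above the controls in 5 of the 81 and wholly below them in 23. Over all genes these shares were 8.48% and 22.7%.

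Genes next to the receptor had a median log2 fold change of -0.15. Of 15 tested, 1 had higher and 4 lower values at an unadjusted p under 0.05, against 6.98% and 17.1% of all genes. As deposited, 1 lay wholly above and 6 wholly below the controls, against 8.48% and 22.7% of all genes. Grb10, an adaptor that restrains the receptor and is imprinted in mouse, read 9.60, 7.76 and 8.46 FPKM across controls 1 to 3 against 6.01, 5.25 and 5.19 FPKM across knockouts 1 to 3. The groups were apart, with a Grb10 log2 fold change of -0.56 (SE 0.099, adjusted p = 0.076 in limma). Sh2b2, an adaptor that binds the activated receptor, read 21.4, 19.1 and 20.7 FPKM across controls 1 to 3 against 29.2, 29.4 and 25.7 FPKM across knockouts 1 to 3. It was the one gene of the list with higher values in every knockout, with a log2 fold change of 0.44 (SE 0.086, adjusted p = 0.081 in limma).

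Igf1r, the receptor for insulin-like growth factor, had means of 1.36 ± 0.24 and 0.85 ± 0.12 FPKM in controls and knockouts (SD, n = 3). Dok1, an adaptor best known from blood cells, had 4.27 ± 0.94 and 3.07 ± 0.18 FPKM. Their adjusted p were 0.14 and 0.17 in limma. Neither overlapped between groups as deposited, but Dok1 did after either scaling. Irs4, Enpp1 and Socs1 did not reach the filter.

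Genes of the kinase relay had their median at -0.098, which was -0.018 after median-of-ratios scaling, -0.031 after upper-quartile scaling and -0.060 without control replicate 3. Of 22 tested, 2 had higher and 4 lower values at an unadjusted p under 0.05, against 6.98% and 17.1% of all genes. As deposited, 1 lay wholly above and 8 wholly below the controls, against 8.48% and 22.7% of all genes. Mtor, the kinase of the growth-controlling mTOR complexes, read 15.4, 16.6 and 16.8 FPKM across controls 1 to 3 against 19.0, 23.7 and 20.03 FPKM across knockouts 1 to 3. Every knockout was above every control (Mtor log2 fold change 0.34, SE 0.098, adjusted p = 0.12 in limma). Eif4ebp1, a repressor of translation that mTOR inactivates, had means of 88.6 ± 8.77 and 72.8 ± 4.90 FPKM in controls and knockouts, and Phlpp2, an Akt phosphatase, had 3.63 ± 0.25 and 2.95 ± 0.23 FPKM (SD, n = 3). Neither overlapped between groups as deposited, with adjusted p of 0.16 and 0.17 in limma, and Eif4ebp1 overlapped after either scaling. Pik3cd, a catalytic subunit best known from leukocytes, had 2.62 ± 0.68 and 1.65 ± 0.22 FPKM (adjusted p = 0.14 in limma).

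Outputs of Akt had their median at -0.019, which was 0.066 after median-of-ratios scaling, 0.053 after upper-quartile scaling and -0.12 without knockout replicate 1. Of 13 tested, 2 had higher and 1 lower values at an unadjusted p under 0.05, against 6.98% and 17.1% of all genes. As deposited, 2 lay wholly above and 2 wholly below the controls, against 8.48% and 22.7% of all genes. Ppp1r3b, which brings a phosphatase to glycogen, read 26.4, 22.98 and 21.9 FPKM across controls 1 to 3 against 46.4, 48.0 and 31.1 FPKM across knockouts 1 to 3. It had the largest log2 fold change of the 81 genes in the higher direction, 0.77 (SE 0.17, adjusted p = 0.086 in limma), with the groups apart. Gsk3a, a kinase that inhibits glycogen synthase, had means of 15.6 ± 0.37 and 17.9 ± 1.06 FPKM. Foxo3, a forkhead factor excluded from the nucleus by Akt, had 3.83 ± 0.50 and 3.03 ± 0.18 FPKM, and Pde3b, the phosphodiesterase through which insulin restrains lipolysis, had 48.4 ± 5.89 and 40.7 ± 2.21 FPKM (SD, n = 3). The 3 genes were without overlap between groups as deposited, with adjusted p of 0.18, 0.18 and 0.21 in limma, but Foxo3 and Pde3b overlapped after either scaling.

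Genes of GLUT4 vesicles and their traffic had a median of -0.074 (0.010 after median-of-ratios scaling). Of 19 tested, 0 had higher and 3 lower values at an unadjusted p under 0.05, against 6.98% and 17.1% of all genes. As deposited, 4 lay wholly below the controls, against 22.7% of all genes. Sort1, the sortilin that sorts GLUT4 into its storage vesicles, read 71.4, 62.3 and 51.1 FPKM across controls 1 to 3 against 48.9, 48.8 and 46.4 FPKM across knockouts 1 to 3. As deposited the knockouts sat close together just below the lowest control, and after either scaling the groups overlapped (Sort1 log2 fold change -0.34, SE 0.12, adjusted p = 0.16 in limma). Vamp2, a vesicle fusion protein, had means of 18.4 ± 1.42 and 14.2 ± 1.78 FPKM in controls and knockouts, and Exoc7, of the tethering exocyst complex, had 10.7 ± 0.78 and 8.63 ± 0.12 FPKM. Lnpep, the aminopeptidase that travels with GLUT4, had 12.2 ± 0.64 and 10.8 ± 0.30 FPKM (SD, n = 3). These 3 genes, named for their small p, did not overlap between groups, with adjusted p of 0.13, 0.12 and 0.23 in limma. Lnpep had an unadjusted p of 0.063, and its log2 fold change of -0.16 was -0.069 after median-of-ratios scaling.

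Of 12 other transporter, hexokinase and arrestin-domain genes tested, 1 was higher and 4 lower at an unadjusted p under 0.05. Over all genes these shares were 6.98% and 17.1%. The median of the 12 was -0.070 (0.039 without knockout replicate 2). As deposited, 1 lay wholly above and 3 wholly below the controls, against 8.48% and 22.7% of all genes. Hk2, the hexokinase that traps glucose in insulin-responsive tissues, read 53.3, 34.3 and 47.6 FPKM across controls 1 to 3 against 70.1, 83.2 and 72.1 FPKM across knockouts 1 to 3 (Hk2 log2 fold change 0.74, SE 0.16, adjusted p = 0.085 in limma). Txnip, which promotes the removal of GLUT1 and GLUT4 from the cell surface, read 308, 425 and 274 FPKM across controls 1 to 3 against 115, 198 and 268 FPKM across knockouts 1 to 3. All knockouts were below all controls as deposited, knockout replicate 3 by little, and the groups overlapped after either scaling (Txnip log2 fold change -0.85, SE 0.31, adjusted p = 0.16 in limma). Without knockout replicate 1, the lowest library, Txnip was at -0.52. Arrdc4, its close relative, overlapped between groups at 6.22 ± 1.08 and 4.74 ± 0.67 FPKM. Hk3, best known from myeloid cells, had 2.44 ± 0.55 and 1.51 ± 0.31 FPKM (SD, n = 3; adjusted p = 0.14 in limma).

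**Figure D4:**
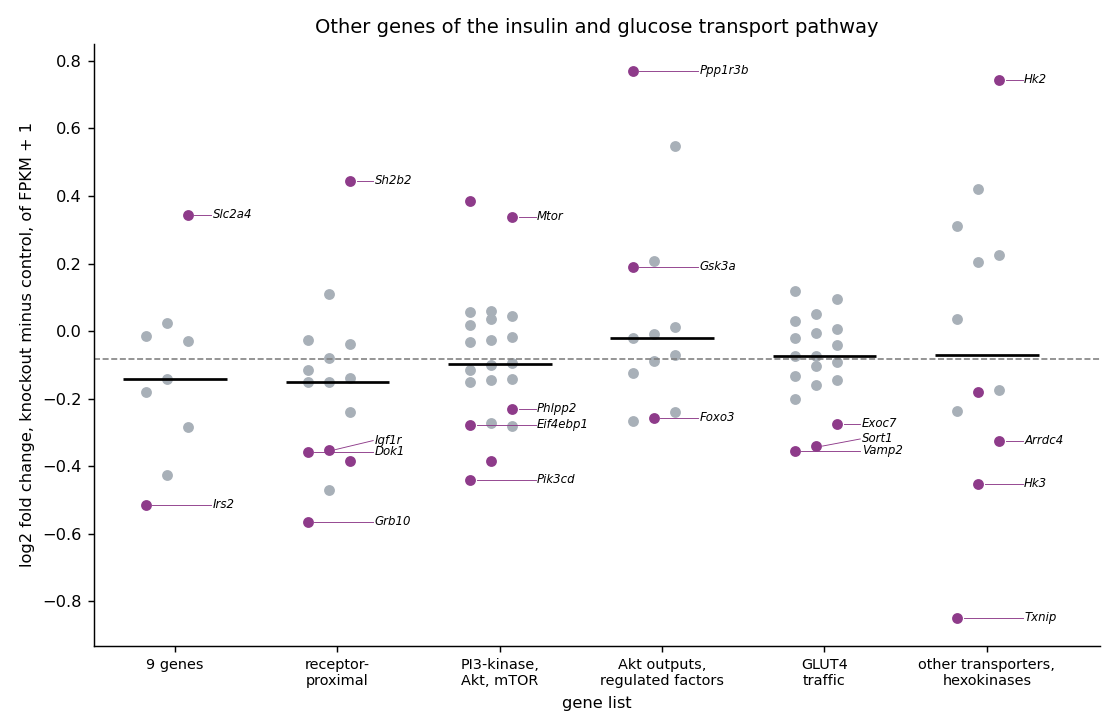
Log2 fold changes, knockout minus control, of FPKM + 1 (vertical axis) for the 9 genes and for 5 lists of pathway genes, 1 point per gene. Purple points have an unadjusted p under 0.05 in limma, with the genes named in the text labelled, solid bars are list medians and the dashed line is the median of all genes tested (-0.082). List medians lie between -0.15 and -0.019, near the dashed line, and no gene passed the adjusted threshold.

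No marker of another cell type or of adipocytes passed an adjusted p of 0.05 in limma, the smallest being 0.070. Their counts at an unadjusted p under 0.05 stand beside 6.98% higher and 17.1% lower of all genes. Of 9 mature adipocyte markers 3 had lower and 0 had higher values at that threshold, and their summed level was 13080 to 14363 FPKM in controls and 10418 to 11281 FPKM in knockouts. Cfd made up much of these sums, averaging 6162 FPKM in controls and 4000 FPKM in knockouts. The log2 fold change was negative for 7 of the 9, though only -0.027 for Fabp4, and positive for 2, Lpl (0.030) and Retn (0.23). Over all genes tested it was negative for 7121 of 10787. All 9 macrophage markers had lower values at that threshold, with sums of 552 to 736 and 348 to 453 FPKM. Of 6 thermogenic adipocyte markers 4 had higher values there, with sums of 1221 to 2790 and 2752 to 4281 FPKM. Of 7 fibroblast and progenitor markers 4 had lower values, of 8 endothelial markers 1, of 5 Schwann cell markers 1 and of 5 tested erythroid markers 0. All 5 Schwann cell and all 5 tested erythroid markers had a negative fold change, as had 7121 of the 10787 genes tested. Lymph node markers summed to at most 2.64 FPKM and epithelial markers to at most 1.26 FPKM, with Krt14 listed at 0 throughout. The part of these cell types in the pathway values was not tested.

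For Insr and Slc2a4 the genes with the most similar pattern were those whose 6 log2 values, each centred on its own mean, had the smallest mean absolute distance. For Slc2a4 these were Gss, of glutathione synthesis (0.036), Pygl, a glycogen phosphorylase (0.044), and Ptges, a prostaglandin E synthase (0.050). Gss read 6.36, 7.02 and 4.64 FPKM across controls 1 to 3 against 8.54, 7.03 and 8.82 FPKM across knockouts 1 to 3, with the same low control replicate 3 and high knockout replicate 3. For Insr they were Wipf2 (0.026), Tmem205 (0.031) and Nudt6 (0.038), each with its lowest value in control replicate 3 and its highest in control replicate 2. These distances describe the same 6 libraries and were not tested.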

How the data were processed

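The authors deposited a table of FPKM with a row for each gene and a column for each of the 6 libraries. The submitters' processing notes name cutadapt, HISAT2, HTSeq and build mm10; their versions, settings and gene annotation are not given there. The unit was read from the values: FPKM times the merged exon length (GENCODE M21) and 1 factor per library came within 0.05 of a whole read for 97.9 to 98.1% of the values up to 50 reads. Of 21936 rows, 36 repeating a symbol were left out. Long exon models lower FPKM. Genes averaging 1 FPKM or more in controls or in knockouts were tested with limma 3.58.1 (R 4.3.3, mean-variance trend, log2(FPKM + 1), genotype only), with Benjamini-Hochberg adjustment over all of them and a threshold of 0.05. The pseudocount shrinks fold changes of weakly expressed genes. No 2 libraries agreed within counting noise (chi-square per degree of freedom at least 9.28).

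The members and lists were chosen with earlier results of these data known. Named were the 9 genes, Foxp4, the 4 genes of each pathway list with the smallest unadjusted p, genes of the marker lists, and the 3 nearest patterns to Insr and Slc2a4. Irs3, Slc2a5, Slc2a8, Pik3r2, Pik3r3, Tnnc2, Krt14 and genes named as unmeasured were named for context after their values were seen. Alternatives were a pseudocount of 0.1, no filter, a replicate block, median-of-ratios and upper-quartile scaling, leaving out each library, and voom weights on recovered reads.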

Additional observations from a re-analysis of the deposited data

How the results depend on the processing

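In 12 alternatives none of the 9 genes and none of the 81 pathway genes passed an adjusted p of 0.05, while calls over all genes ranged from 0 to 5. The fit with voom weights was chosen after seeing the data; a count-model fit was not run because the table holds FPKM. Without a filter 1 of the 9 genes had an unadjusted p under 0.05, against 2980 of 16872 genes tested. When 1 library was left out there were 0 to 2 of the 9, against 1501 to 2745 of all genes. The median of the 9 was -0.047 after median-of-ratios scaling and -0.24 to -0.048 when 1 library was left out. Pathway genes lower at an unadjusted p under 0.05 numbered 9 after median-of-ratios or upper-quartile scaling and 6 to 18 when 1 library was left out. Over all genes the share lower was 9.28% and 10.5% under these scalings, and 10.2 to 19.0% when 1 library was left out. Signs turned for Insr (0.076 and 0.062 under these scalings, -0.14 to 0.069 without 1 library), Akt2 (0.070, 0.054, and -0.088 to 0.034) and Tbc1d4 (-0.061 to 0.11 without 1 library). The cause was not tested. Irs2, Irs1, Pik3r1, Akt1, Slc2a1, Slc2a4 and the 3 ratios kept their sign in every alternative run for them.

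With the replicate number as a block, 0 of the 9 genes passed, 2 had an unadjusted p under 0.05 in limma (Irs2 and Pik3r1, both at an adjusted p of 0.22, with Slc2a4 at 0.29) and calls over all genes were 0. The ratio of Slc2a1 to Slc2a4 then differed by -0.59, with an exact p of 0.25 from flipping the signs of the paired differences. That is the smallest p this test can give with 3 samples per group. Same-numbered libraries did not deviate together (correlations 0.065, 0.027 and -0.25, against -0.23 to 0.18 for the other pairs). With so few libraries per group, these correlations cannot show whether same-numbered samples share more than a number. With 101 to 201 reads on Slc2a1, its counting error is the largest of the 9.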
